A study of Homo sapiens with 6 samples.

Results

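The genes described here encode the proteins that license origins, unwind DNA and copy it. They are 36 genes chosen by name: the replicative helicase and its cofactors, the licensing factors, the replicative polymerases, the sliding clamp and its loaders, enzymes that finish new strands, fork checkpoint proteins, histone and chromatin factors, and a pair of E2F transcription factors. All 36 were among the 17335 genes listed in the deposited expression table, and all 36 passed the filter on low values (0.5 FPKM or more in 3 or more of 6 libraries), which left 12258 genes for the test. FPKM counts fragments relative to gene length and library size, so levels of different genes can be set beside each other. Such comparisons between genes rest on the gene lengths used, which are not given.

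RNA was sequenced from A549, an established human cell line of lung adenocarcinoma, grown in F12K medium with fetal bovine serum and given either a compound labelled BRQ (3 libraries) or its solvent control DMSO (3 libraries). According to its title, the series tests inhibition of DHODH, a mitochondrial enzyme of pyrimidine nucleotide synthesis; the labels leave the abbreviation BRQ unexplained, and it is read as that inhibitor. The labels used give neither dose nor exposure time. They also do not state whether replicate libraries derive from different cultures, and the p-values therefore describe library-to-library spread, possibly technical only. The libraries were bulk cultures, so a changed share of cells in S phase and changed RNA per S-phase cell cannot be told apart.

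Origins are licensed when the origin recognition complex, CDC6 and CDT1 load the ring of MCM2 to MCM7 onto DNA. The ring becomes an active helicase when CDC45 and the GINS complex join it. Polymerase alpha then starts new strands, polymerase epsilon extends the leading strand and polymerase delta the lagging strand, both held on DNA by the clamp PCNA, which the RFC complex loads. E2F transcription factors drive most of these genes at the start of S phase.

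The reads on listed genes, worked back from the steps between FPKM values, came to between 31924312 and 34617601 per BRQ library and between 27569672 and 29411371 per DMSO library. Members of the replication list had between 90 and 9622 reads in a library. Of 10 markers of epithelium and of A549 fixed for this check, 9 had at least 1 FPKM in every library, and CDKN2A, a gene deleted in this line, stayed at or below 0.0227 FPKM. The summed level of the epithelial and A549 markers was 3270 to 3390 FPKM in BRQ and 1760 to 1780 FPKM in DMSO. Of 5 markers each for fibroblasts, immune cells and endothelium, the 4 of each list that had values summed to 4.72 to 4.85, 0.880 to 1.37 and 0.186 to 0.267 FPKM in BRQ, and to 1.53 to 1.95, 0.182 to 0.253 and 0.00617 to 0.0810 FPKM in DMSO. COL1A2, CD3E and CLDN5 were the markers without values. The part of these lists in the results was not tested.

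Replication genes moved in both directions and split within complexes. Of the 36 genes 17 were higher and 13 were lower in BRQ than in DMSO (limma adjusted p under 0.05 over all tested genes), and 6 were not called. The called share of 83.3% lay near the background, since 79.7% of all tested genes were called, 44.3% as higher and 35.4% as lower. Among all tested genes lower calls outnumbered higher ones under other scaling, with 4655 higher and 5058 lower with median-ratio scaling and 4713 higher and 4959 lower with quantile normalization. The median log2 fold change was 0.06 for the 36 genes and 0.07 for all tested genes, with extremes of -1.57 for POLE and 1.06 for GINS4. A change of at least 2-fold on the log2(FPKM + 0.5) scale was seen for 5 of the 36 genes (13.9%), against 15.4% of all tested genes. Of these 5, GINS4 and DSCC1 rose (2 genes, where 10.3% of all tested genes rose this far), and MCM2, MCM5 and POLE fell (3 genes, where 5.12% fell this far). MCM2, MCM5 and POLE stayed past this limit in all 16 alternative settings. DSCC1 and GINS4 lay close to it. DSCC1 was at 0.97 on the log2 scale without DMSO replicate 1 and 0.99 without BRQ replicate 1. It was at 0.88 with a pseudocount of 1 and at 0.89 with quantile normalization. Each of these settings leaves GINS4 as the 1 risen gene past the limit. With median-ratio scaling DSCC1 was at 0.94 and GINS4 at 0.97, which leaves no risen gene. The same held with the trend with gene span removed (0.97 and 0.98). CDC45 fell past the limit under some settings, among them median-ratio scaling (-1.04) and quantile normalization (-1.12). POLE2 rose past it with a pseudocount of 0.1 (1.02) and in limma-voom on the recovered reads (1.065). By the ratio of mean FPKM, without the pseudocount, POLE2 (2.09-fold higher) and CDC45 (2.24-fold lower) also passed 2-fold. In RefSeq's annotation of GRCh38.p14, POLE lies on chromosome 12 from base 132623762 to base 132687342, on the minus strand, MCM5 lies on chromosome 22 from base 35400140 to base 35455031, on the plus strand. MCM2 lies on chromosome 3 from base 127598411 to base 127622436, on the plus strand and PCNA lies on chromosome 20 from base 5114953 to base 5126622, on the minus strand. The BRQ and DMSO values did not overlap for 31 of the 36 genes (86.1%), against 81.4% of all tested genes. All BRQ values lay above all DMSO values for 16 (44.9% of all tested genes) and below them for 15 (36.5% of all tested genes).

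**Figure D1:**
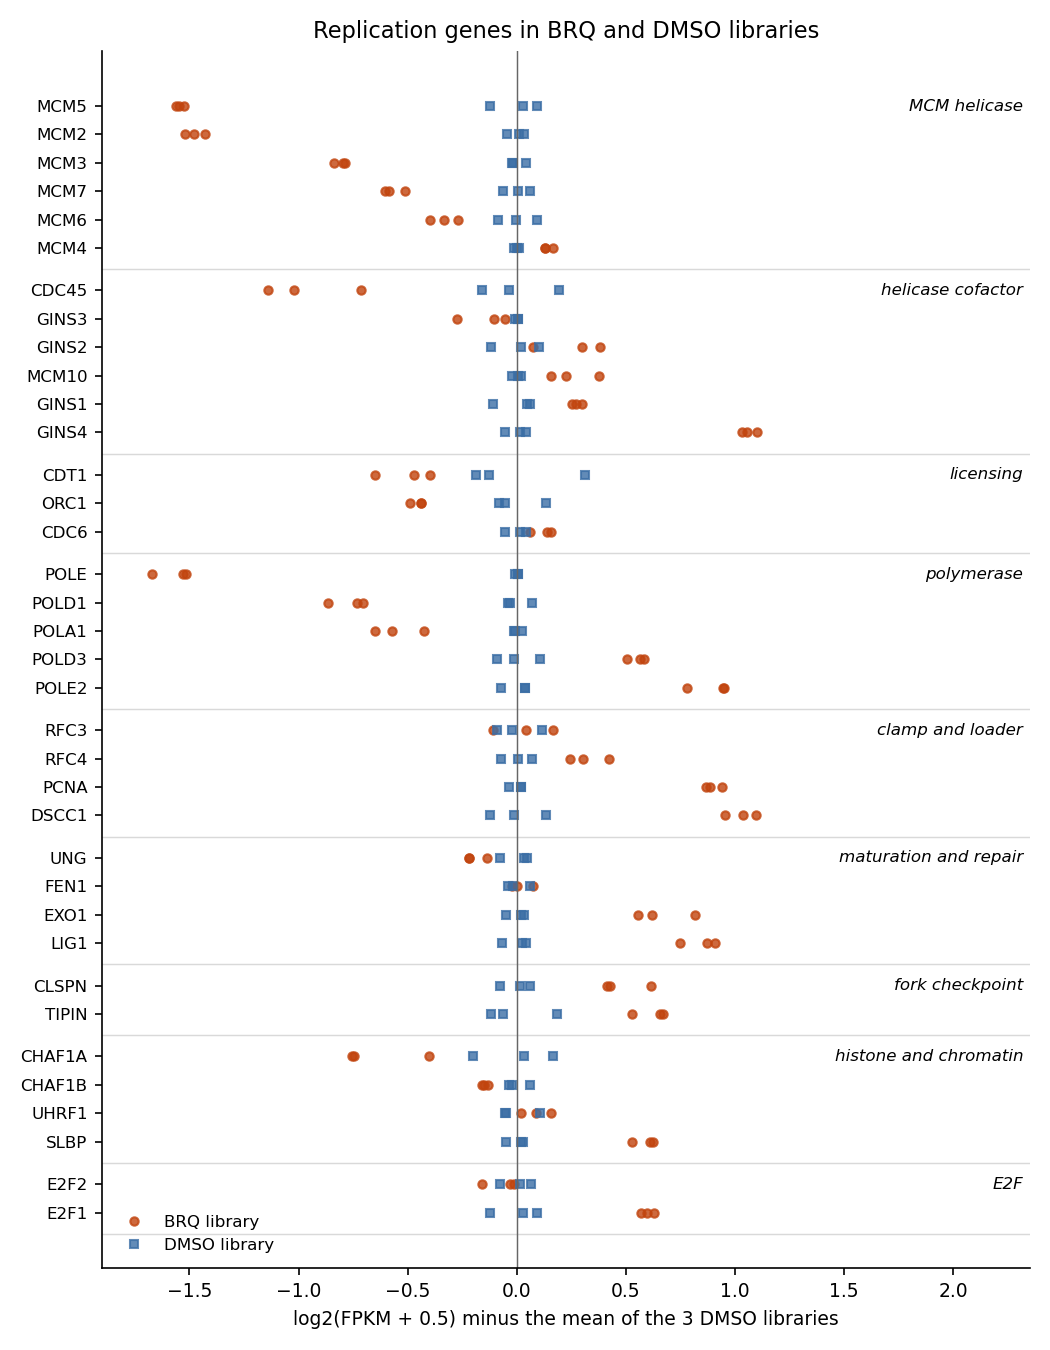
Each row is a replication gene and each point a library, plotted as log2(FPKM + 0.5) minus the mean of the 3 DMSO libraries, with circles for BRQ and squares for DMSO and rows grouped by role. BRQ points of POLE, MCM5 and MCM2 lie farthest to the left and those of GINS4 and DSCC1 farthest to the right.

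The RNAs of the ring subunits changed by unequal amounts. Of the 6 ring genes 5 fell and 1 rose, with log2 fold changes from -1.54 to 0.14, and none of the 6 overlapped between groups. Among all tested genes 79.7% were called and 81.4% did not overlap, shares to set beside this and the later counts by role. MCM5, a regulatory subunit next to the gate through which the ring opens, had 3.25, 3.28 and 3.35 FPKM in the BRQ libraries, against 11.3, 9.67 and 10.8 FPKM in the DMSO libraries. It was the ring gene with the lowest level in both groups, and its fold change was the lowest of the ring (-1.54 on the log2 scale, SE 0.07, adjusted p = 1.3e-08 in limma). MCM2, whose protein forms the other side of that gate and also binds histones, had 10.4, 10.8 and 10.1 FPKM in BRQ and 29, 30.6 and 30.1 FPKM in DMSO (log2 fold change -1.47, SE 0.04, adjusted p = 1.03e-09). Every BRQ library lay below every DMSO library by a wide margin for both genes. Which of them fell further depended on the setting: with a pseudocount of 1 MCM2 was at -1.434 and MCM5 at -1.428.

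The other ring genes moved less. MCM3, whose tail contacts the loader at the origin, averaged 13.8 ± 0.277 FPKM in BRQ and 24.5 ± 0.645 FPKM in DMSO (SD, n = 3 each; log2 fold change -0.80). MCM7, one of the catalytic core subunits and the most abundant of the ring, averaged 36.2 ± 1.21 FPKM in BRQ and 53.9 ± 2.31 FPKM in DMSO (log2 fold change -0.57). MCM6, another core subunit, averaged 10.9 ± 0.536 FPKM in BRQ and 13.9 ± 0.875 FPKM in DMSO (log2 fold change -0.33). MCM4, the remaining core subunit, went the other way by a small margin, with 23.4, 24 and 23.4 FPKM in BRQ and 21.4, 21.2 and 21.5 FPKM in DMSO. Its call as higher (log2 fold change 0.14, SE 0.04, adjusted p = 0.00515) ended with median-ratio scaling (log2 fold change 0.04, adjusted p = 0.32) and with the trend with gene span removed (0.06, adjusted p = 0.117).

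Since FPKM is per length, each subunit can be given as a share of the summed ring RNA in its library. The sum over MCM2 to MCM7 was 98.2 ± 1.41 FPKM in BRQ and 154 ± 2.14 FPKM in DMSO (n = 3 each). MCM4 made up 24% ± 0.296 of it in BRQ and 13.9% ± 0.131 in DMSO, and MCM2 10.6% ± 0.321 in BRQ and 19.4% ± 0.804 in DMSO. MCM5 made up 3.35% ± 0.0452 in BRQ and 6.86% ± 0.444 in DMSO, while MCM7 stayed the largest share with 36.8% ± 1.08 in BRQ and 35% ± 1.02 in DMSO. The order of the subunits thus changed: MCM2 was the second most abundant ring RNA in DMSO and the fifth in BRQ, below MCM4, MCM3 and MCM6 as well as MCM7. In BRQ its level of 10.4 ± 0.350 FPKM was close to that of MCM6, and the ranges of both genes overlapped. Within each BRQ library MCM6 was the higher by a small margin (10.9, 11.4 and 10.4 FPKM against 10.4, 10.8 and 10.1 FPKM). The shares of all 6 subunits did not overlap between groups, though those of MCM7 nearly met, and each reached the smallest p that an exact two-sided permutation test of 3 against 3 libraries can give, 0.10.

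**Figure D2:**
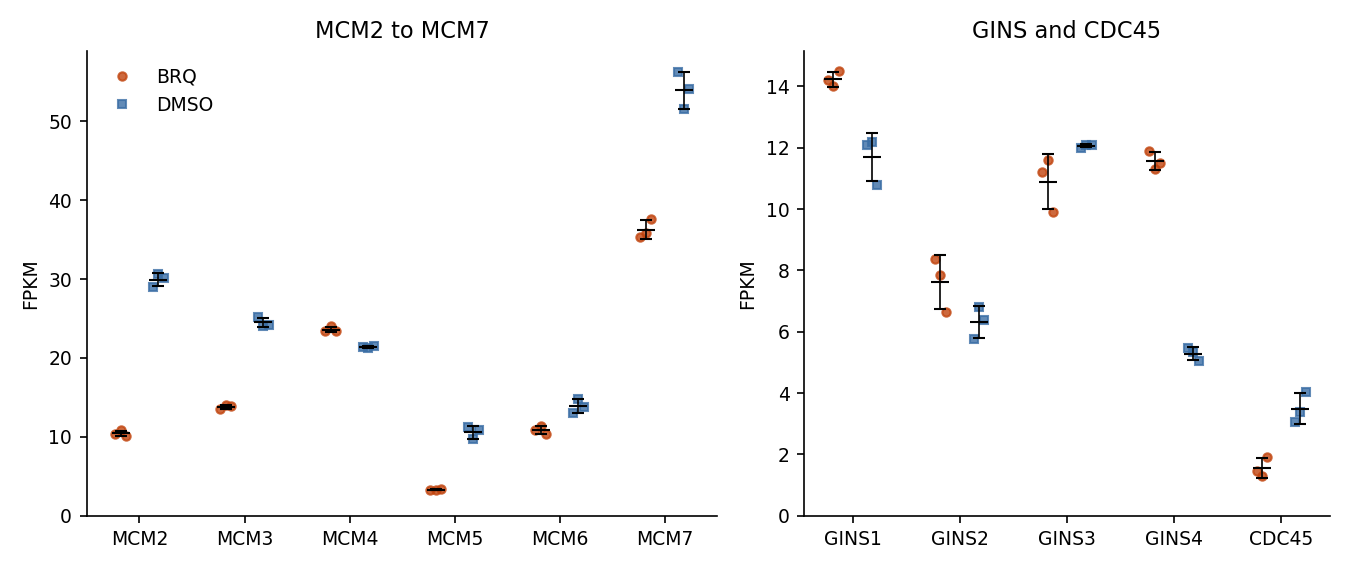
FPKM of the ring genes MCM2 to MCM7 (left) and of GINS1 to GINS4 and CDC45 (right), with circles for BRQ libraries and squares for DMSO libraries, and the black mark and bar giving mean and SD (n = 3 each). MCM2 and MCM5 are far lower in BRQ, MCM4 is slightly higher, and GINS4 and CDC45 move in opposite directions.

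The cofactors that activate the ring moved in both directions. Of 6 cofactor genes 4 rose, 1 fell and 1 was not called, where 44.3% of all tested genes were called higher and 35.4% lower. CDC45, which clamps the ring into its active form, had 1.46, 1.30 and 1.92 FPKM in BRQ and 3.06, 3.38 and 4.04 FPKM in DMSO (log2 fold change -0.96, SE 0.13, limma adjusted p = 4.82e-05), on 101 to 278 reads per library. GINS4, the subunit also called SLD5, had 11.9, 11.3 and 11.5 FPKM in BRQ and 5.46, 5.33 and 5.06 FPKM in DMSO (log2 fold change 1.06, SE 0.05, adjusted p = 3.77e-08). The groups did not overlap for either gene, and GINS4 reached about the level of GINS3 in BRQ.

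GINS is a ring-binding complex of 4 different subunits, and its other genes differed less between groups. GINS1 averaged 14.2 ± 0.265 FPKM in BRQ and 11.7 ± 0.788 FPKM in DMSO (log2 fold change 0.27, adjusted p = 0.00105). GINS2 averaged 7.62 ± 0.884 FPKM in BRQ and 6.31 ± 0.523 FPKM in DMSO, and the groups overlapped. GINS2 was called higher (log2 fold change 0.25, adjusted p = 0.0239), but not without BRQ replicate 1 (adjusted p = 0.0957), BRQ replicate 2 (0.0717) or DMSO replicate 1 (0.0888), nor without a filter (0.0593), with median-ratio scaling (0.128) or with the span trend removed (0.099). GINS3 averaged 10.9 ± 0.918 FPKM in BRQ and 12.1 ± 0.0494 FPKM in DMSO and was not called (log2 fold change -0.14, 95% interval -0.28 to -0.01, adjusted p = 0.0541). It was called lower without BRQ replicate 2 (adjusted p = 0.0213), with median-ratio scaling (0.0052) and with the span trend removed (0.00555). GINS4 made up 26.1% ± 0.844 of the summed GINS RNA in BRQ and 14.9% ± 0.447 in DMSO, and GINS3 24.6% ± 1.36 in BRQ and 34.2% ± 1.08 in DMSO, where the exact two-sided p was 0.10 for both, the smallest possible. MCM10, a factor needed to start unwinding that is not part of the ring, averaged 7.33 ± 0.612 FPKM in BRQ and 6.06 ± 0.104 FPKM in DMSO (log2 fold change 0.25, adjusted p = 0.00557).

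Of the 3 licensing genes 2 fell and 1 was called higher, against 35.4% of all tested genes called lower and 44.3% called higher. CDT1, which brings the ring to origins and is destroyed once S phase starts, had 3.33, 4.07 and 3.84 FPKM in BRQ and 6.96, 4.79 and 5.01 FPKM in DMSO. DMSO replicate 1 stood above the rest of its group, and the fall (log2 fold change -0.51, adjusted p = 0.00369) was -0.35 without that library (adjusted p = 0.00653). ORC1, the origin recognition subunit that comes and goes with the cell cycle, had 3.01, 2.89 and 3.01 FPKM in BRQ and 4.72, 4.08 and 4 FPKM in DMSO (log2 fold change -0.46, SE 0.08, adjusted p = 0.00032). CDC6, the ATPase that joins ORC to load the ring, averaged 16 ± 0.595 FPKM in BRQ and 14.7 ± 0.515 FPKM in DMSO (log2 fold change 0.12, adjusted p = 0.0427). Its call ended under 10 of 16 alternative settings, among them median-ratio scaling (log2 fold change 0.02, adjusted p = 0.697) and leaving out BRQ replicate 1 (0.116), BRQ replicate 3 (0.129), DMSO replicate 1 (0.15) or DMSO replicate 3 (0.0683). CDC6 and MCM4 were thus the licensing and ring genes whose levels stayed closest to DMSO.

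In the polymerases the catalytic subunits fell and the accessory subunits on the list rose. POLE, the catalytic subunit of polymerase epsilon, had 3.37, 3 and 3.41 FPKM in BRQ and 10.7, 10.7 and 10.6 FPKM in DMSO. Its change of -1.57 on the log2 scale (SE 0.06, adjusted p = 7.08e-09 in limma) was the lowest of the 36 genes, and mean FPKM was 3.28-fold lower in BRQ. Without DMSO replicate 2 MCM5 was lower, at -1.603 against -1.576 for POLE. POLE2, the accessory subunit that binds it, had 3.43, 3.91 and 3.93 FPKM in BRQ and 1.85, 1.68 and 1.85 FPKM in DMSO (log2 fold change 0.89, SE 0.08, adjusted p = 3.03e-06), on 97 to 267 reads per library. The number of POLE FPKM per POLE2 FPKM was 0.982, 0.768 and 0.868 in the BRQ libraries and 5.82, 6.35 and 5.74 in the DMSO libraries. By FPKM, the RNA of the catalytic subunit was thus in excess in DMSO and at about the level of its partner in BRQ.

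Polymerase delta showed the same split to a smaller degree. POLD1, its catalytic subunit, had 6.32, 5.71 and 6.45 FPKM in BRQ and 11.4, 10.6 and 10.5 FPKM in DMSO (log2 fold change -0.77, SE 0.06, adjusted p = 1.12e-06). POLD3, an accessory subunit that also serves break-induced replication, had 6.13, 6.42 and 6.5 FPKM in BRQ and 4.13, 3.89 and 4.53 FPKM in DMSO (log2 fold change 0.55, SE 0.07, adjusted p = 3.35e-05). POLD1 made up 49.2% ± 1.90 of the POLD1 and POLD3 RNA in BRQ and 72.1% ± 1.96 in DMSO, and POLE made up 46.5% ± 3.04 of the POLE and POLE2 RNA in BRQ and 85.6% ± 0.665 in DMSO (exact two-sided p = 0.10 for both, the smallest possible). POLA1, the catalytic subunit of polymerase alpha, averaged 2.39 ± 0.235 FPKM in BRQ and 3.73 ± 0.0528 FPKM in DMSO (log2 fold change -0.55, adjusted p = 9.91e-05). The POLA1 gene spans 303 kb, the longest of the 36, and with the trend of fold change with gene span removed its log2 fold change was -0.11 (adjusted p = 0.195).

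**Figure D3:**
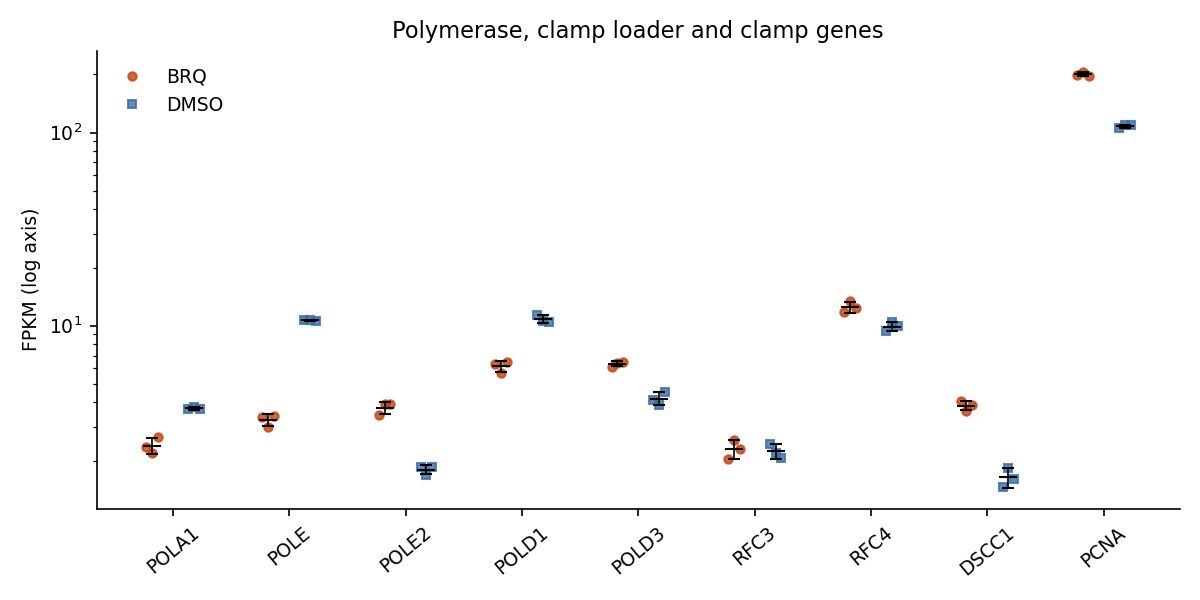
FPKM on a log axis of the polymerase genes POLA1, POLE, POLE2, POLD1 and POLD3, the clamp loader genes RFC3, RFC4 and DSCC1 and the clamp gene PCNA, with circles for BRQ, squares for DMSO and black marks for mean and SD (n = 3 each). POLE and POLD1 are lower in BRQ while POLE2, POLD3, DSCC1 and PCNA are higher.

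Of the 4 clamp and loader genes on the list 3 rose and 1 was not called. PCNA, the sliding clamp, had 199, 207 and 197 FPKM in BRQ and 105, 109 and 109 FPKM in DMSO (0.90 on the log2 scale, SE 0.03, adjusted p = 2.47e-09 in limma), the most abundant RNA of the 36 in both groups. DSCC1, a subunit of an alternative clamp loader that serves sister chromatid cohesion, had 4.05, 3.63 and 3.87 FPKM in BRQ and 1.46, 1.84 and 1.61 FPKM in DMSO (log2 fold change 1.03, SE 0.09, adjusted p = 1.86e-06), on 90 to 299 reads per library. No BRQ value of either gene came near a DMSO value. RFC4, a small subunit shared by the loaders, averaged 12.5 ± 0.843 FPKM in BRQ and 9.88 ± 0.499 FPKM in DMSO (log2 fold change 0.32, adjusted p = 0.000673). RFC3, another shared subunit, averaged 2.30 ± 0.267 FPKM in BRQ and 2.23 ± 0.202 FPKM in DMSO, with overlapping groups and a 95% interval of the log2 fold change from -0.18 to 0.25 (adjusted p = 0.748). With the span trend removed RFC3 was called higher (log2 fold change 0.24, adjusted p = 0.0453). PCNA, RFC3, UNG and FEN1 have named pseudogenes, and reads shared with those copies make their levels uncertain.

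Among the enzymes that finish and repair new strands 2 rose, 1 fell and 1 was not called. LIG1, the ligase that seals Okazaki fragments, had 12, 11.7 and 10.7 FPKM in BRQ and 5.87, 6.28 and 6.37 FPKM in DMSO (log2 fold change 0.84, SE 0.06, adjusted p = 5.13e-07). FEN1, the flap nuclease that acts just before it, had 28.9, 28.4 and 30.4 FPKM in BRQ and 28.5, 28 and 30.1 FPKM in DMSO (log2 fold change 0.01, 95% interval -0.08 to 0.11, adjusted p = 0.766). The libraries of the groups were interleaved for FEN1, and the ratio of LIG1 to FEN1 was 0.394 ± 0.0362 in BRQ and 0.214 ± 0.00935 in DMSO. FEN1 overlaps FADS2 on the same strand in the annotation, and FADS2 had a log2 fold change of 1.17, so the FEN1 value depends on how the authors assigned shared reads. With the span trend removed FEN1 was called lower (log2 fold change -0.14, adjusted p = 0.011). EXO1, an exonuclease of mismatch repair and fork processing, averaged 8.15 ± 0.829 FPKM in BRQ and 4.95 ± 0.168 FPKM in DMSO (log2 fold change 0.66, adjusted p = 1.43e-05). UNG, which removes uracil from DNA, averaged 16 ± 0.587 FPKM in BRQ and 18.4 ± 0.885 FPKM in DMSO (log2 fold change -0.19, adjusted p = 0.00428), and its call ended in limma-voom on the recovered reads (adjusted p = 0.0853).

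Both fork checkpoint genes rose, where 44.3% of all tested genes were called higher and 81.4% did not overlap between groups. CLSPN, the adaptor through which ATR activates CHK1, averaged 3.99 ± 0.352 FPKM in BRQ and 2.71 ± 0.154 FPKM in DMSO (log2 fold change 0.48, adjusted p = 0.000288). TIPIN, a fork protection factor, had 12.3, 12.2 and 11.1 FPKM in BRQ and 6.92, 8.66 and 7.20 FPKM in DMSO (log2 fold change 0.62, adjusted p = 4.54e-05). The groups did not overlap for either gene.

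The 4 histone and chromatin genes split as well, with 1 higher, 1 lower and 2 not called. SLBP, which binds histone mRNA and peaks in S phase, had 31.5, 31.2 and 29.5 FPKM in BRQ and 20.6, 19.6 and 20.7 FPKM in DMSO (log2 fold change 0.59, SE 0.04, adjusted p = 4.58e-07). CHAF1A, the large subunit of the histone chaperone CAF-1, had 2.19, 2.21 and 2.94 FPKM in BRQ and 4.15, 4.60 and 3.45 FPKM in DMSO (log2 fold change -0.63, SE 0.12, adjusted p = 0.000682). CHAF1B, its partner, averaged 1.65 ± 0.0208 FPKM in BRQ and 1.88 ± 0.0860 FPKM in DMSO and was not called (log2 fold change -0.15, 95% interval -0.33 to 0.03, adjusted p = 0.114). All BRQ values of CHAF1B lay below all DMSO values, and it was called lower with median-ratio scaling (adjusted p = 0.0237), quantile normalization (0.00225) and no intensity trend (0.0182). CHAF1A made up 59.5% ± 4.08 of the CAF-1 RNA of these 2 genes in BRQ and 68.2% ± 3.24 in DMSO (exact two-sided p = 0.10, the smallest possible). The groups nearly met, with 64.2% in BRQ replicate 3 and 65.2% in DMSO replicate 3. UHRF1, which recruits maintenance DNA methylation to new strands, averaged 8.27 ± 0.421 FPKM in BRQ and 7.75 ± 0.528 FPKM in DMSO (log2 fold change 0.09, 95% interval -0.06 to 0.23, adjusted p = 0.231).

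Of the 2 E2F genes on the list 1 rose. E2F1, an activator of S-phase genes, had 7.86, 8.02 and 8.22 FPKM in BRQ and 5.26, 5.52 and 4.68 FPKM in DMSO (log2 fold change 0.60, SE 0.07, adjusted p = 1.53e-05). E2F2, a related activator, had 0.937, 1.09 and 1.07 FPKM in BRQ and 1.02, 1.18 and 1.12 FPKM in DMSO (log2 fold change -0.07, 95% interval -0.28 to 0.14, adjusted p = 0.519), and was called lower under quantile normalization alone of the 16 settings (-0.35, adjusted p = 0.00709).

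Promoters of the 36 genes share letters that E2F proteins are known to bind, whichever way the gene moved. RefSeq promoters (GRCh38.p14), from 250 bases before to 50 bases after the most upstream listed start, were found for 31 of the 36 genes and for 13840 listed genes in all; MCM4, MCM5, GINS4, POLD3 and DSCC1 had no entry. Sought on either strand were the letters TTCGCGC, the variant form TTCCCGC, the related form written TTGGCGC and the further form written TTGCCGC. At least 1 of these 4 forms occurred in 25 of the 31 (80.6%), against 44.2% of 43 promoters of other replication genes, 21% of those of tested genes and 18.5% of all promoters. They occurred in 10 of 13 promoters of genes that rose (76.9%), 10 of 12 of genes that fell (83.3%) and 5 of 6 of genes not called (83.3%). CCAAT, the letters bound by NF-Y, occurred on either strand in 17 of the 31 (54.8%), close to the 51.2% of other replication genes, against 36.3% of all promoters. The run TTTGAA or its variant form TTCGAA, the letters of the cell cycle homology region of G2 and mitosis genes, occurred in 1 of the 31 (3.23%), the promoter of MCM6, against 14% of other replication genes and 12.4% of all. A match is a run of letters and not a shown site, and CCAAT and E2F letters can overlap, as they do in the POLE promoter.

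To show these letters beside the values, the 250 bases before the start are given for POLE and POLE2, the partners that moved apart, for MCM7, which fell, and for PCNA and E2F1, which rose. Each is written 5′ to 3′ on the strand of the gene, with matches to the E2F letters in capitals. POLE2 had no full match in this stretch, and its match lay wholly or partly in the 50 bases after the start.
POLE, chr12:132687343-132687592, minus strand: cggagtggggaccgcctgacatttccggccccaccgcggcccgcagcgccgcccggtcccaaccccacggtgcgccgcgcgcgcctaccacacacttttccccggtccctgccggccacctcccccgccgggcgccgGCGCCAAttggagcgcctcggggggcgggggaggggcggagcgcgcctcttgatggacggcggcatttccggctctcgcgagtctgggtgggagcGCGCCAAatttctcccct
POLE2, chr14:49688215-49688464, minus strand: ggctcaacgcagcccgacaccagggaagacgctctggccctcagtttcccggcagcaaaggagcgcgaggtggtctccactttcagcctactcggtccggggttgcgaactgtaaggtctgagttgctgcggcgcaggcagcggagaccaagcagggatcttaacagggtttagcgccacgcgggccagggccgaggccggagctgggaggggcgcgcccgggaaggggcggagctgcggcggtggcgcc
MCM7, chr7:100101398-100101647, minus strand: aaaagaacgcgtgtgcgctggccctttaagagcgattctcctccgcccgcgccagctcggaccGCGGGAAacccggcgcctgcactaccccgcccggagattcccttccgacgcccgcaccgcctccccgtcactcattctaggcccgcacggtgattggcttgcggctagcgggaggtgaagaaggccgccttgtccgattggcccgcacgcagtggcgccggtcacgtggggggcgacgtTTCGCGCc
PCNA, chr20:5126623-5126872, minus strand: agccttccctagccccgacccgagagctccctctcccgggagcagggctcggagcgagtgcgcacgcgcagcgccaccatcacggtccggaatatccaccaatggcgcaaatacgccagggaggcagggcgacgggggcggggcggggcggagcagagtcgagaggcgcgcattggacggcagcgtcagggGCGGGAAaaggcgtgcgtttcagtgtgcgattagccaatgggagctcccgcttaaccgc
E2F1, chr20:33686386-33686635, minus strand: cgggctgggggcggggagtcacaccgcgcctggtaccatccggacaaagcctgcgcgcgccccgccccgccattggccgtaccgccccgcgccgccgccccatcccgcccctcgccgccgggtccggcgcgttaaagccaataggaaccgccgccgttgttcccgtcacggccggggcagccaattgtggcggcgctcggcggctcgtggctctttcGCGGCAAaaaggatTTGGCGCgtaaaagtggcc
The stretch of POLE, which fell 3.28-fold, and that of E2F1, which rose 1.56-fold in mean FPKM, each held 2 matches.

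Within the 36 genes the direction of change went with the base composition of the transcript. Among the 19 genes whose longest coding transcript (GENCODE release 29) held less than 50% GC, 14 rose and 2 fell. Among the 17 at 50% or more, 3 rose and 11 fell, where 44.3% of all tested genes were called higher and 35.4% lower. The limit was set after the values were seen. The median GC content was 45.3% for the genes that rose, 56.4% for those that fell and 51.2% for those not called. Among all tested genes it was 48.8% for those called higher and 49.1% for those called lower. The 3 GC-rich genes that rose were E2F1, LIG1 and SLBP, and the 2 GC-poor genes that fell were MCM6 and POLA1. Across the 36 genes Spearman's rho between GC content and log2 fold change was -0.55, given as a description, since the genes share the same 6 libraries. Over 11996 tested genes with a transcript it was 0.01, and over 52 other replication genes it was 0.00. Genomic span had a rho of -0.08 over the 36 genes and -0.20 over 12245 tested genes. Exon number had a rho of -0.35 over the 36 genes, -0.12 over the 52 others and -0.21 over 11996 tested genes. Transcript length had -0.24, 0.01 and -0.18 over the same sets. Of the features looked at, GC content had the rho farthest from 0 over the 36 genes, and it was singled out with these values known.

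**Figure D4:**
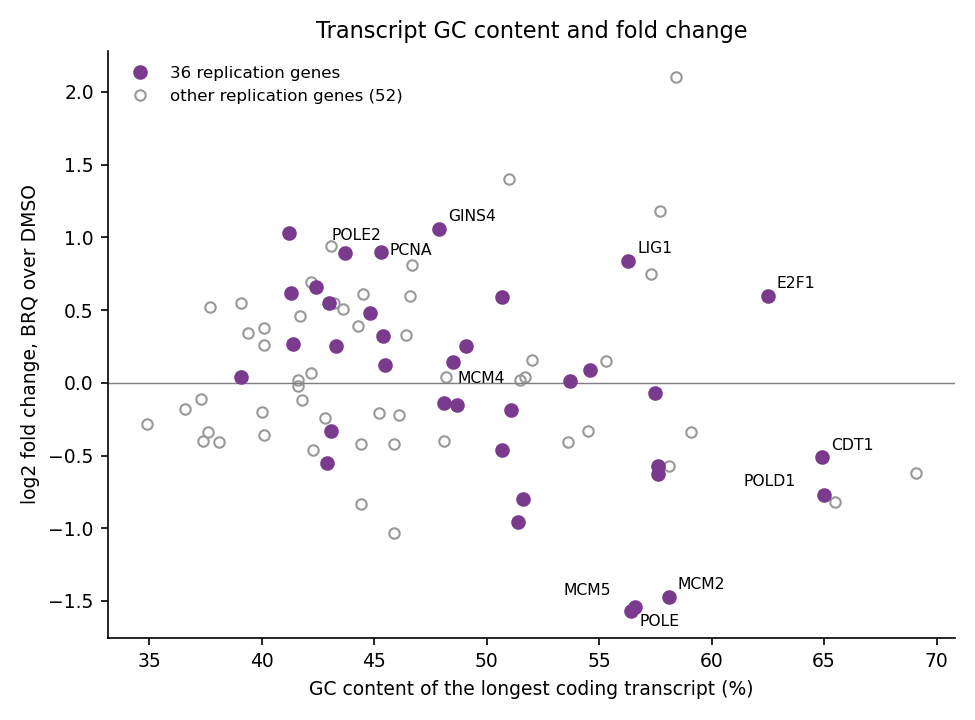
GC content of the longest coding transcript in percent against the log2 fold change, BRQ over DMSO, with filled points for the 36 genes and open points for 52 other replication genes. Filled points run from POLE2, PCNA and GINS4 at the upper left to MCM2, MCM5 and POLE at the lower right, and open points show no such slope.

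The rest of the replication machinery was read from a list of 53 further genes, of which 52 were listed and tested. It was as mixed as the 36: 20 rose, 20 fell and 12 were not called (76.9% called, against 79.7% of all tested genes), with a median log2 fold change of 0.02. The genes that rose most were ASF1B, a histone chaperone, with 26.5, 28.6 and 26.4 FPKM in BRQ and 5.84, 5.51 and 6.52 FPKM in DMSO (log2 fold change 2.10, SE 0.06, limma adjusted p = 1.09e-09), POLE4 (1.40), RNASEH2C (1.18) and E2F7, a repressor of E2F targets (0.94). ASF1B, which hands histones to CAF-1, rose by more than any of the 36 genes. The genes that fell most were RPA3, the small subunit of the single-strand binding protein RPA, with 3.38, 2.83 and 2.61 FPKM in BRQ and 5.81, 7.33 and 6.44 FPKM in DMSO (log2 fold change -1.03, SE 0.10, adjusted p = 5.55e-06), ORC6 (-0.83), RECQL4, a helicase-like factor of origin firing (-0.82), and CHTF18, the large subunit of the loader that DSCC1 belongs to (-0.62).

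Set beside their partners on this list, several complexes held genes that rose and genes that fell. The split of the polymerases by catalytic and accessory subunit did not hold for all partners, since the accessory subunits POLD2 and POLA2 fell. The following partners were named to complete each complex, after their values were seen. In polymerase epsilon POLE fell while POLE2, POLE3 (log2 fold change 0.33) and POLE4 (1.40), a histone-fold subunit, rose. In polymerase delta POLD1 and POLD2 (-0.34) fell while POLD3 and POLD4 (0.75) rose. In polymerase alpha both POLA1 and POLA2 (-0.33) fell, and the primase genes PRIM1 (0.26) and PRIM2 (-0.02) were not called, although PRIM1 was called higher without BRQ replicate 1 or without DMSO replicate 1 and PRIM2 with the span trend removed. In the origin recognition complex ORC1 and ORC6 fell, ORC2 (0.38), ORC3 (0.34) and ORC4 (0.52) rose, and ORC5 (-0.12) was not called except as lower with median-ratio scaling. Of the 5 RFC genes RFC1 (0.46), RFC4 and RFC5 (0.61) rose, RFC2 (-0.41) fell and RFC3 was not called.

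**Figure D5:**
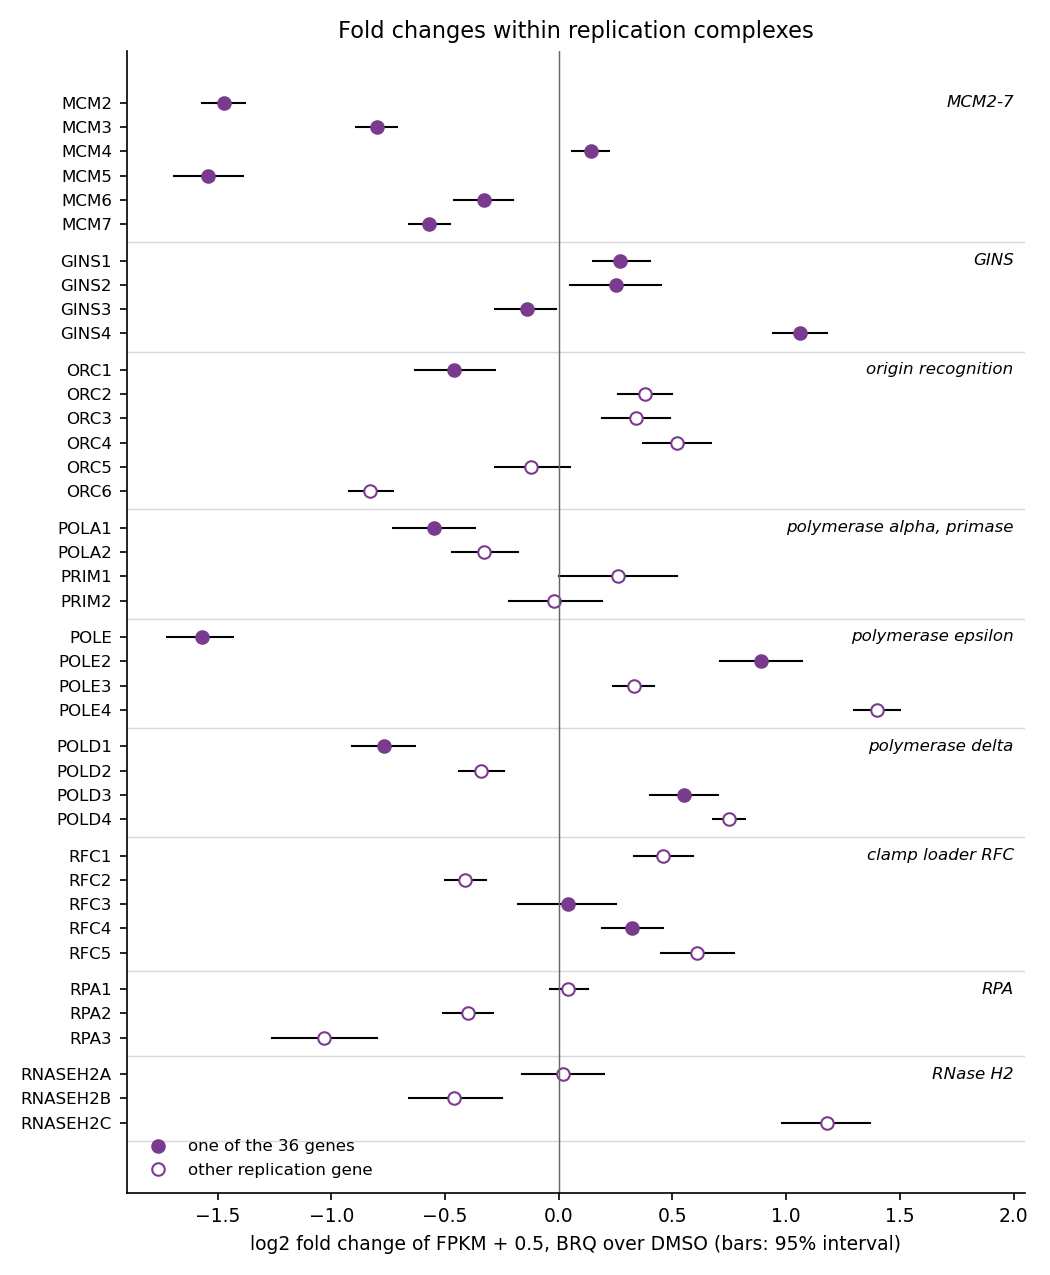
The change between BRQ and DMSO, as log2 of the ratio of FPKM + 0.5, with 95% intervals from limma, for the genes of 9 replication complexes; filled points are among the 36 genes and open points are other replication genes. Points lie on both sides of 0 in each of the 9 complexes. In GINS, polymerase alpha with primase, and RPA, the lone point on its side (GINS3, PRIM1 and RPA1) was not called.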

How the data were processed

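The authors deposited FPKM values, 1 column per library, per the table's name and its values. Tools named in the submitters' processing notes are fastp and HTSeq, without versions, on hg38; for the aligner, annotation and strandedness nothing is given in the sources used. The fit was limma 3.58.1 (R 4.3.3) on log2(FPKM + 0.5), with eBayes, an intensity trend and no covariate beside the group. Genes reaching 0.5 FPKM in 3 or more libraries were tested, two-sided, with Benjamini-Hochberg adjustment over 12258 genes and a threshold of 0.05. The pseudocount shrinks the changes of weakly expressed genes. All 17335 genes gave whole reads within 0.01 of a read; these served for depth and 1 alternative. The fit and the recovery of reads were tested on simulated data. Far fewer genes were changed in the simulation than were called here, so it does not test scaling under such broad change.

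The members and lists were chosen with earlier results of these data known, so no test was run on a list as a whole. All 36 members are described; of the other replication genes, up to 4 called in each direction with the largest change are named by rule. Positions (RefSeq, GRCh38.p14, by Entrez ID) and GC content (GENCODE release 29, by symbol) were matched for all 36 members, and RefSeq promoters for 31. Python 3.11.15 with pandas 2.3.3 and scipy 1.17.1 served for the rest.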

Additional observations from a re-analysis of the deposited data

How the results depend on the processing

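Over 16 alternative settings 25 of the 30 called replication genes kept their call and direction under each one (14 higher, 11 lower); the exceptions were MCM4, CDC6, GINS2, POLA1 and UNG. The count of genes called ran from 14 to 17 higher and from 12 to 15 lower. The median log2 fold change of the 36 genes was 0.062, and -0.027 with median-ratio scaling; that of the other replication genes was 0.021, -0.076 with median-ratio scaling and -0.037 with quantile normalization, so a sign of either median depends on scaling. The median of all tested genes was 0.070, -0.021 with median-ratio scaling and -0.018 with quantile normalization. Same-numbered libraries did not deviate together (correlations of -0.0235, -0.0083 and -0.0378), and with the replicate number as a block 16 genes were called higher and 13 lower, and the call of CDC6 ended (adjusted p = 0.0707). Genes that were not called changed sign: RFC3 with median-ratio scaling (-0.047), quantile normalization (-0.123) and, without BRQ replicate 2 (-0.031) or DMSO replicate 3 (-0.010), within a range of -0.031 to 0.107 over the libraries left out; FEN1 with median-ratio scaling (-0.084), quantile normalization (-0.040), the span trend removed (-0.141) and, without BRQ replicate 3 (-0.013) or DMSO replicate 2 (-0.007), within a range of -0.013 to 0.044; and UHRF1 with median-ratio scaling (-0.006). The cause was not tested. Removal of the span trend was chosen after the data were seen. Genes under 100 reads in a library, POLE2 and DSCC1, have the widest counting error.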

Other observations

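The licensing regulators outside the 36 genes also moved both ways, with 4 of 8 higher (44.3% of all tested genes) and 3 lower (35.4%). Among the 4, TICRR (log2 fold change 0.16, limma adjusted p = 0.041) lost its call under 8 of 16 alternative settings, among them median-ratio scaling (adjusted p = 0.344) and leaving out any 1 library but DMSO replicate 3 (adjusted p from 0.0631 to 0.137), and MTBP, not called, was lower with quantile normalization (adjusted p = 0.00235). Of 5 pocket protein and DP genes, which partner E2F proteins, RBL2, TFDP1 and TFDP2 rose and RBL1 and RB1 were not called. RBL1 was called lower under 5 of the 16 settings, among them without DMSO replicate 3 (adjusted p = 0.00652), and RB1 under 2, median-ratio scaling (0.0379) and without BRQ replicate 3 (0.0385). Of the 8 E2F genes 2 rose (E2F1 and E2F7) and 5 were called lower. One of these, E2F5 (-0.22, adjusted p = 0.0344), had overlapping groups and lost its call under 7 settings, among them without BRQ replicate 1 (0.109), BRQ replicate 2 (0.13), DMSO replicate 1 (0.113) or DMSO replicate 2 (0.0642). The shares of 44.3% higher and 35.4% lower among all tested genes also stand beside the counts of E2F genes and their partners. The choice of these names was made with the values in view.

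Of the 36 genes 12 had a coding gene on the other strand that started within 1000 bases upstream or at most slightly inside the gene. For 9 of them the gene itself was called and the neighbour was tested. The neighbour was called the same way for 2 (POLD3 and TIPIN), the other way for 1 (MCM4) and not called for 6, among them the neighbours of MCM2, CDC45, POLE, PCNA and LIG1. Among all tested genes 2490 of 12258 were not called, and whether a shared start region matters was not tested. Overlap with another coding gene was annotated for 8 of the 36 genes, and for RFC4 the overlapping gene on the other strand, EIF4A2, fell by 1.72 on the log2 scale.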
